A study of Mus musculus with 72 samples.

Results

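The 10 genes described here encode subunits of the inner ring of the nuclear pore complex (Nup93, Nup188, Nup205, Nup155 and Nup35), of its central channel (Nup62 and Nup54) and of its cytoplasmic face (Nup214, Nup88 and Aaas). The rule took them by name, as subunits of these parts of the pore, with earlier results of these data known. They are 10 of the 45407 genes with a matched transcript in the files, and all 10 were among the 18279 genes that passed the filter on low counts. The samples were mouse embryonic stem cells of control or Nup133 knockout lines, taken for mRNA sequencing at day 0, day 2 and day 3 of differentiation towards neuroectoderm, with 3 biological samples for each genotype and day. The comparison asks how these genes behave when the pore loses Nup133, a subunit of the Y-complex, before and during differentiation.

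Control samples were line HM1 (Nup133+/+, 40 chromosomes, XY) in biological replicates 1 and 2, and line 1A4 (Nup133+/+, Sox1gfp/+, 40 chromosomes, XY). Lines 14 and 19 (Nup133-/-, XY, 40 chromosomes, for line 19 given as likely) are derivatives of HM1 made with CRISPR/Cas9. Line 319 (Nup133merm/merm, Sox1gfp/+) was derived from a blastocyst, as was 1A4, and its label gives 42 chromosomes, XX, with an extra chromosome 8 and an extra chromosome 12. The knockout group is thus 3 lines, 1 sample each per day, and the control group 2 lines. All lines were grown on mitomycin-treated DR4 mouse fibroblasts in serum with LIF, and the fibroblasts were removed by letting them settle for 20 min before collection at day 0. Day 2 cells had grown without feeders in N2B27 medium, and day 3 cells had in addition received 1 μM retinoic acid for 24 h.

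The nuclear pore is built from rings of a few repeated subcomplexes. Y-complexes, to which Nup133 belongs, form the outer rings on both faces of the nuclear envelope. The inner ring lies between them: Nup155 and Nup35 contact the membrane, Nup188 and Nup205 are large related scaffold proteins, and Nup93 links the scaffold to the channel. Nup62 and Nup54 carry phenylalanine-glycine repeats and, with Nup58, fill the channel that controls transport. On the cytoplasmic face Nup214 and Nup88 take part in the export of mRNA and proteins, and Aaas (ALADIN) is held at the pore by the membrane nucleoporin Ndc1.

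Promoter sequences are shown for the genes on which the results turn: Nup54, which fell from day 0 to day 2 in both genotypes, Nup62 and Aaas, which fell from day 2 to day 3 in both genotypes, and Nup88, which was lower in the knockout at day 3. Each is the 250 bases before the gene's start in RefSeq on GRCm38.p6, 5′ to 3′ on the strand of the gene. The windows are chr5:92435200-92435449 on the minus strand (Nup54), chr7:44815838-44816087 on the plus strand (Nup62), chr15:102350760-102351009 on the minus strand (Aaas) and chr11:70969974-70970223 on the minus strand (Nup88). Capitals mark matches, on either strand, to 8 motifs: the CCAAT box, the TATA box (searched as TATAAA), the GC box (GGGCGG), a core of ETS-family sites (CCGGAAG), the E-box (CACGTG), a part of the NRF1 site (TGCGCA), and the E2F-type letters TTGGCGC and, as another form, TTCCCGC.
Nup54: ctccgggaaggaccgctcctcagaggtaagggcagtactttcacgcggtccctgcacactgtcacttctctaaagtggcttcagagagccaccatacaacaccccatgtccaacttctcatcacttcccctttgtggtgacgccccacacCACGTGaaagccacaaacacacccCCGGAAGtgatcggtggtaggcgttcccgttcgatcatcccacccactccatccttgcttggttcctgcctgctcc
Nup62: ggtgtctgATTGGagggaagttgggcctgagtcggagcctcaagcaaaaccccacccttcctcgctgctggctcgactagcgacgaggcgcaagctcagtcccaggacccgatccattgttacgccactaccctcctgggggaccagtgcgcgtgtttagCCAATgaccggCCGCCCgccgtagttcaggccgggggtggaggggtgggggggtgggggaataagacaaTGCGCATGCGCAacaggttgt
Aaas: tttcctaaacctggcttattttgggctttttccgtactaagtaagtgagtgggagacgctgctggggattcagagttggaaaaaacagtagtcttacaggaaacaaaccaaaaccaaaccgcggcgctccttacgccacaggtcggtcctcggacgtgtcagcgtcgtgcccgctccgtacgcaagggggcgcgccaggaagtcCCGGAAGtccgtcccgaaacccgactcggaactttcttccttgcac
Nup88: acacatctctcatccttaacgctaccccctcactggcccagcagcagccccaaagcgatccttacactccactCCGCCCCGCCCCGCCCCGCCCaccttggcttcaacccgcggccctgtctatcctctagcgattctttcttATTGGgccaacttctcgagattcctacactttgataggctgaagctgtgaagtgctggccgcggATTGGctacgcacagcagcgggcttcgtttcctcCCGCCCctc

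A promoter was found for 9 of the 10 genes, and none of the 9 held TATAAA, which 12.4% of all 32851 RefSeq promoter windows of this length held. Nup62 held 2 matches to TGCGCA that stand end to end, and Nup214 held 1, against 6.43% of all windows with a match. CCGGAAG was present for Nup155, Nup54 and Aaas (6.91% of all windows) and CACGTG for Nup93, Nup188 and Nup54 (6.02%). The GC-rich motif GGGCGG was present for 5 of the 9 (32.7% of all windows), with 5 matches for Nup88, of which those in the long run of C and G overlap. CCAAT was present for 5 of the 9 (33.8% of all windows), with 2 matches each for Nup93, Nup62, Nup214 and Nup88 and 1 for Nup155. TTGGCGC and TTCCCGC were in none of the 9 (1.97% and 3.82% of all windows). These matches describe letters in the windows and say nothing of factors bound there.

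The samples held from 16.5 M to 54.4 M gene counts. The label check on Nup133 itself gave 179.5 to 323 CPM (counts per 1000000 counts, after TMM scaling) in the 9 control samples and 14.3 to 37.1 CPM in the 9 knockout samples, which do not overlap. In the knockout its log2 level differed from controls by -3.19 ± 0.26, -3.28 ± 0.26 and -3.40 ± 0.27 (SE, on days 0, 2 and 3), and the adjusted p was at most 3.2e-05 in edgeR's quasi-likelihood test. The day 2 difference was -3.61 ± 0.25 without line 19 at day 2, a library described below. The summed level of 8 pluripotency markers (Pou5f1, Nanog, Sox2 and others) went from 4121 to 5796 CPM over the day 0 samples to 279.6 to 624 CPM over the day 3 samples. That of 6 neural markers went from 49.3 to 163 CPM at day 0 to 271 to 918 CPM at day 3, where the controls spanned 294 to 349 CPM. Of 9 fibroblast markers, chosen for the feeder cells, 8 were tested, and their sum was 104 to 256 CPM in control samples and 73.6 to 173 CPM in knockout samples over the 3 days. The sum of 5 primitive endoderm markers was 6.996 to 17.7 CPM at day 0 and 42.0 to 59.2 CPM at day 3. That of 8 cycling-cell markers was 3950 to 4628 CPM at day 0 and 2879 to 3414 CPM at day 3, and that of 4 primed epiblast markers was highest at day 2, at 2320 to 3654 CPM. The part of these other cells and states in the results below was not tested.

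The knockout library of line 19 at day 2 stood apart from the other 17 samples. It is the shallowest, at 16.5 M counts, and its reads lay towards the 3′ ends of long genes. For Nup188 the counts of a transcript at the 5′ end were 0.0571 times those of a transcript at the 3′ end there, against 0.580 to 0.947 in the other samples. The corresponding ratios were 0.405 against 3.65 to 4.86 for Nup205, 0.0315 against 0.214 to 0.320 for Nup214, and 0.474 against 1.01 to 1.43 for Nup54. Across all genes tested, the deviation of a gene from its mean over samples had a Spearman correlation of -0.43 with transcript length in this library, and of -0.17 to 0.32 in the others. The long Nup188, Nup205 and Nup155 had their lowest level of all samples there, and Nup35 and Aaas their highest. Fitted differences that use day 2 of the knockout are therefore given with and without this library, apart from the chromosome-centred fit and the test between genetic backgrounds. Leaving it out also lowers the spread that all groups share in the fit, so calls between control samples changed as well.

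**Figure D1:**
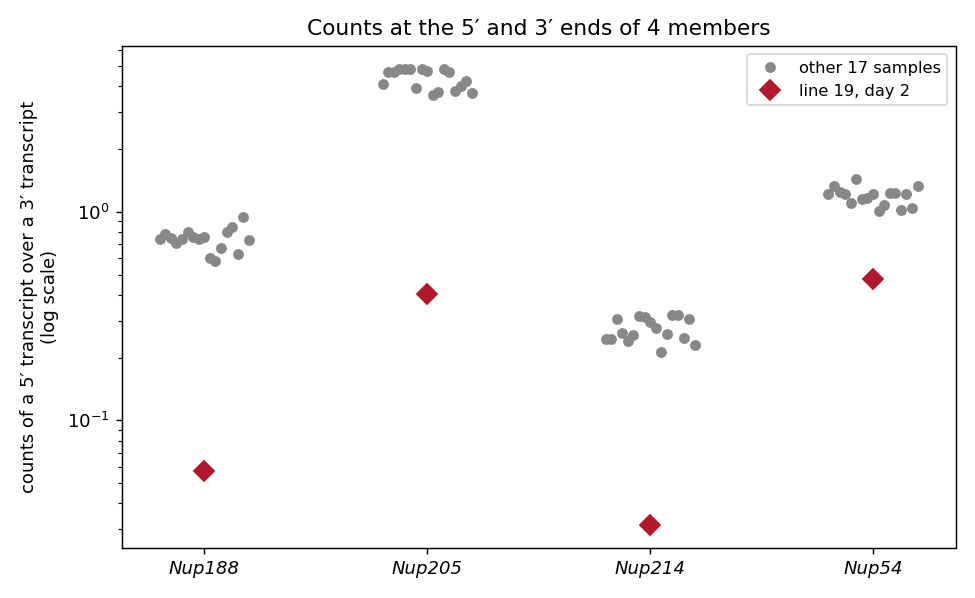
Ratio of counts of a transcript at the 5′ end to those of a transcript at the 3′ end of the same gene (log axis), for the 4 genes that have such transcripts; each point is 1 sample. Line 19 at day 2 lies at 0.0571 for Nup188 and below all 17 other samples for each gene.

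Levels between genes were compared per kilobase of the transcript that represents the gene. In the day 0 controls Nup93 was highest at 132 ± 5.02 CPM per kilobase (SD, n = 3), followed by Nup62 at 105 ± 2.81. Nup88 at 76.1 ± 3.90 and Aaas at 75.6 ± 6.92 overlapped in their ranges, and so did the scaffold pair Nup188 at 52.4 ± 0.959 and Nup205 at 50.8 ± 1.81. Nup54 at 46.4 ± 0.967, Nup155 at 29.8 ± 1.57 and Nup214 at 26.7 ± 0.231 came next, without overlap, and Nup35 was last at 8.17 ± 0.337. The last 4 places, Nup54, Nup155, Nup214 and Nup35, were in this order in all 6 groups, although ranges of neighbours overlapped in the knockout samples: Nup155 with Nup214 at day 0 and day 2, and Nup54 with Nup155 at day 2. Nup93 was first in the controls on all 3 days and in the knockout at day 3, and Nup62 was first in the knockout at day 0 and day 2, with ranges that overlapped its neighbour's. In the day 3 controls Nup93 (78.6 ± 3.92) and Nup88 (71.9 ± 4.95) overlapped, and Aaas had gone from the fourth place to the sixth. For Nup35 and Nup88 the representing transcript is annotated as a retained-intron form. For Nup88 the coding transcripts held nearly the same counts (135074 against 135606 summed over all libraries), and for Nup35 the coding transcript held 9783 against 12175. The coding transcript of Nup88 with 135074 counts is shorter, at 2450 against 3000 bases, so Nup88 would stand higher per kilobase of it. In controls, its overlap with Aaas at day 0 and its place below Nup93 at day 3 thus rest on the length used.

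**Figure D2:**
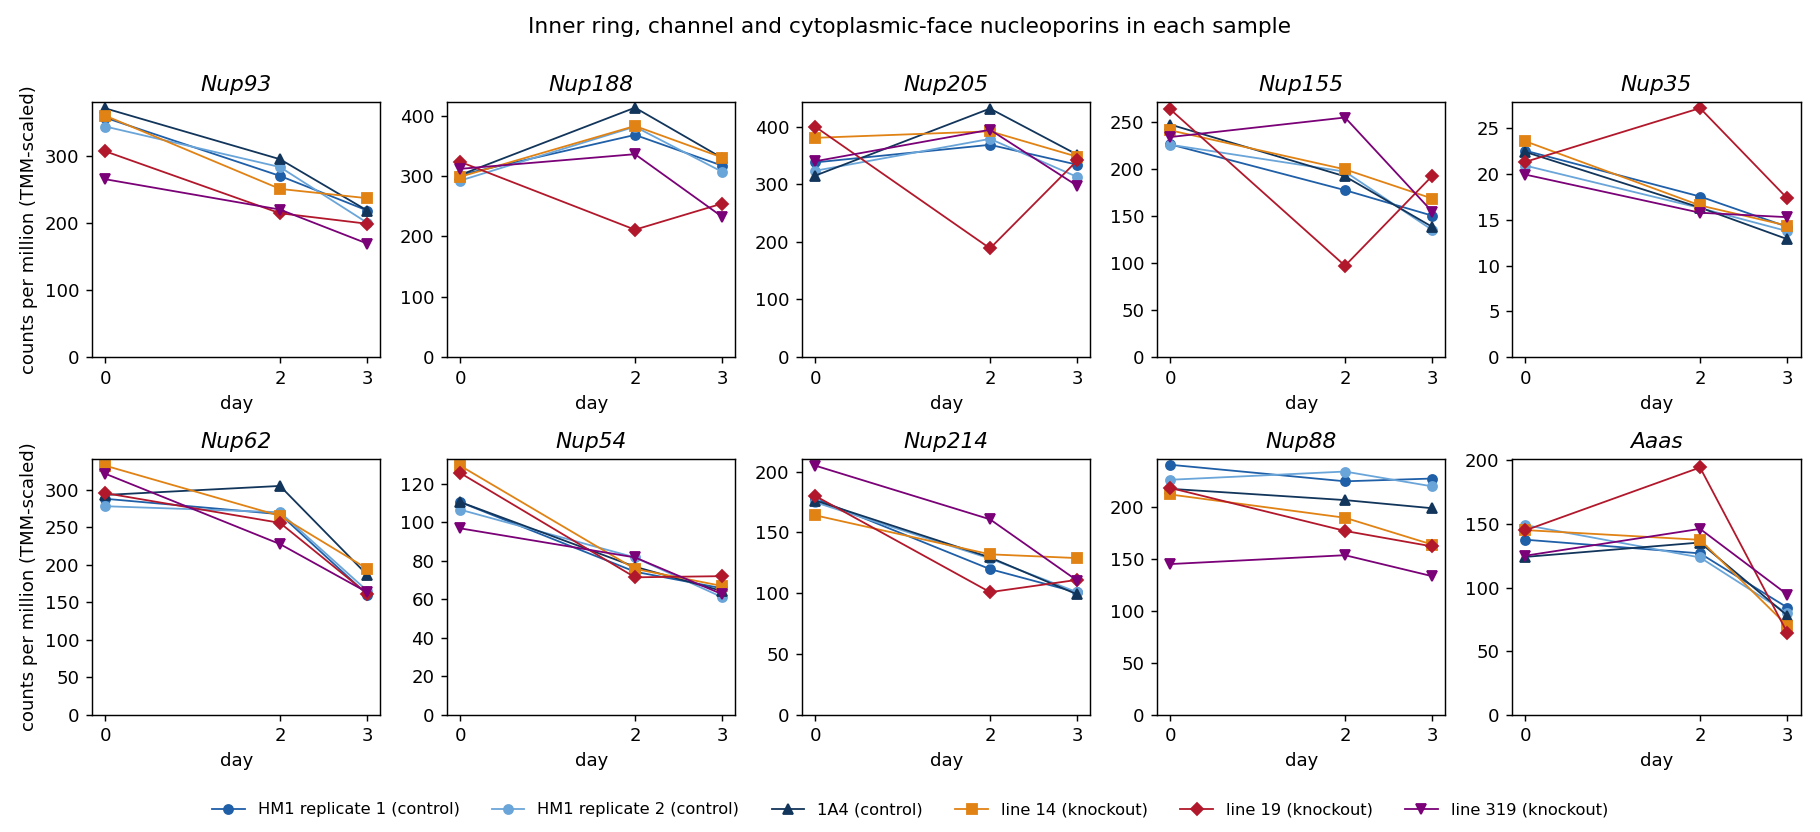
TMM-scaled CPM of each of the 10 genes in each of the 18 samples, by day; lines join samples of 1 cell line or replicate. Nup88 is below the controls in each knockout line at day 2 and day 3, and line 19 at day 2 departs from the other lines in Nup188, Nup205, Nup155, Nup35 and Aaas.

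In the inner ring, Nup93 was lower at day 2 than at day 0 in both genotypes and passed the test in the knockout. In bulk samples, here and below, fewer cells with a transcript and less transcript per cell cannot be told apart. In controls, Nup93 (chr8:94214564-94314860, plus strand, 22 exons) was at 358, 344 and 372 CPM at day 0 (HM1 replicates 1 and 2, then 1A4) and at 271, 284 and 296 CPM at day 2. All 3 control samples were lower at day 2, and the groups do not overlap. The share of all genes whose days do not overlap was not counted. Nothing about the members is therefore read from separation between days, for this gene or those that follow. The log2 fold change was -0.34 ± 0.14 (SE, adjusted p = 0.073 in edgeR's quasi-likelihood test), which missed the threshold, and -0.32 ± 0.12 (adjusted p = 0.039) without line 19 at day 2. With the series of each line as a fixed block it passed as well (adjusted p = 0.036), and so it did without line 14 (0.049) or line 319 (0.044). DESeq2 also called it (adjusted p = 0.039), as did edgeR with each chromosome centred in each sample (-0.43 ± 0.12, adjusted p = 0.0095). Under the remaining alternatives it missed the threshold. In the knockout Nup93 went from 361, 307 and 266 CPM (lines 14, 19 and 319) to 251, 215 and 220.3 CPM. It fell in that group by 0.44 ± 0.14 on the log2 scale (adjusted p = 0.023), and by 0.36 ± 0.13 without line 19 at day 2 (adjusted p = 0.044). That call was lost without HM1 replicate 1 (adjusted p = 0.065), HM1 replicate 2 (0.060), line 14 (0.073) or all of line 19 (0.066), and without the filter on low counts (0.083).

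The related scaffold genes Nup188 and Nup205 were at higher levels at day 2 than at day 0 in controls. Nup188 (chr2:30286397-30344266, plus strand, 44 exons) was at 302, 293 and 302 CPM at day 0 and at 369, 382 and 414 CPM at day 2. Nup205 (chr6:35177421-35247596, plus strand, 43 exons) was at 338, 323 and 315 CPM and then at 368, 379 and 431 CPM. Both were higher at day 2 in all 3 control samples, with no overlap between the days. The log2 differences were 0.38 ± 0.18 for Nup188 (adjusted p = 0.12) and 0.27 ± 0.21 for Nup205 (adjusted p = 0.34), so neither passed the test with all samples. Both passed without line 19 at day 2, at 0.40 ± 0.11 (adjusted p = 0.0097) and 0.29 ± 0.09 (adjusted p = 0.018). In the knockout the pair did not pass in either fit: Nup188 had a difference of -0.01 ± 0.18 with all samples and 0.23 ± 0.13 without that library, and Nup205 one of -0.20 ± 0.21 and 0.10 ± 0.10. Gm28038, at 2.37 to 21.8 CPM before TMM scaling, shares 284 bases of exon with Nup188 on the same strand.

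The membrane-contacting genes of the inner ring were lower at day 2 in controls. Nup155 (chr15:8109273-8161247, plus strand, 35 exons) was at 226, 226 and 247 CPM at day 0 and at 178, 197 and 192 CPM at day 2. Nup35 (chr2:80617236-80658906, plus strand) was at 22.6, 20.9 and 22.4 CPM and then at 17.5, 16.3 and 16.3 CPM. The days do not overlap for either gene. With all samples neither passed the test, at -0.30 ± 0.23 (adjusted p = 0.33) and -0.39 ± 0.18 (adjusted p = 0.097) on the log2 scale. The values were -0.28 ± 0.11 (adjusted p = 0.043) and -0.37 ± 0.11 (adjusted p = 0.012) without line 19 at day 2. In the knockout, Nup35 was at 23.6, 21.3 and 19.9 CPM at day 0 and at 16.6, 27.2 and 15.8 CPM at day 2, where the high value is line 19. Its difference of -0.13 ± 0.18 became -0.39 ± 0.13 without that library (adjusted p = 0.024). For Nup155 the day 2 knockout values were 199.8, 97.2 and 255 CPM, the lowest in line 19, and its difference from day 0 missed the test in both fits, at -0.44 ± 0.23 and -0.10 ± 0.12. Without line 319 it was -0.76 (adjusted p = 0.027). Dusp19, at 3.45 to 15.7 CPM before TMM scaling, shares 131 bases of exon with Nup35 on the same strand.

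In the channel, Nup54 fell in both genotypes, and Nup62 passed the test in the knockout. Nup54 (chr5:92415540-92435219, minus strand, 12 exons) was at 110.4, 107 and 111 CPM in the day 0 controls and at 74.3, 81.7 and 76.9 CPM at day 2. In the knockout it went from 129, 126 and 96.8 CPM to 75.7, 71.4 and 81.7 CPM. No day 2 sample of either genotype reached the lowest day 0 sample. The fall was 0.49 ± 0.13 on the log2 scale in controls (adjusted p = 0.0066) and 0.61 ± 0.13 in the knockout (adjusted p = 0.0015); without line 19 at day 2 it was 0.47 ± 0.10 and 0.54 ± 0.11, called in both. The control call was lost without HM1 replicate 1 (adjusted p = 0.12), HM1 replicate 2 (0.058) or line 1A4 (0.057), or without the filter on low counts (0.059). Nup62 (chr7:44816088-44830812, plus strand, 2 exons) was at 288, 278 and 293 CPM at day 0 and at 268, 270.4 and 305 CPM at day 2 in controls, a difference of -0.03 ± 0.12. In the knockout it went from 333, 296 and 322 CPM to 266, 256 and 228 CPM and fell by 0.34 ± 0.12 on the log2 scale (adjusted p = 0.041, and 0.027 without line 19 at day 2). It lost this call without HM1 replicate 1 (adjusted p = 0.10), HM1 replicate 2 (0.10), line 14 (0.095) or line 319 (0.14), without the filter on low counts (0.18), in the HM1-derived lines by themselves (0.20) and with the longest transcript (0.065). The steps of the genotypes were not shown to differ: their difference for Nup62 was -0.31 ± 0.17 (adjusted p = 0.75), and -0.34 ± 0.15 without that library (adjusted p = 0.59).

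On the cytoplasmic face, Nup214 fell while Nup88 and Aaas missed the test. Nup214 (chr2:31974436-32052371, plus strand, 36 exons) was at 178, 175 and 176 CPM in the day 0 controls and at 119.8, 128 and 129 CPM at day 2. In the knockout it went from 164, 180.1 and 205 CPM to 132, 101 and 161 CPM. Each knockout line was lower at day 2 than at day 0. The fall was 0.49 ± 0.14 on the log2 scale in controls (adjusted p = 0.015) and 0.48 ± 0.14 in the knockout (adjusted p = 0.016), and 0.47 ± 0.10 and 0.32 ± 0.11 without line 19 at day 2, called in both. The control call was lost without HM1 replicate 1 (adjusted p = 0.17), HM1 replicate 2 (0.11) or line 1A4 (0.072), and the knockout call without HM1 replicate 1 (0.051) or all of line 19 (0.066). Without the filter on low counts neither passed (0.078 and 0.062). Nup88 differed between these days by -0.04 ± 0.12 in controls and -0.13 ± 0.12 in the knockout (-0.09 ± 0.10 without line 19 at day 2), and Aaas by -0.09 ± 0.16 and 0.20 ± 0.16. In the day 2 knockout Aaas was at 138, 194 and 146 CPM, the high value again in line 19, and without it the difference was 0.05 ± 0.14.

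In all, 2 of the 10 genes passed the test from day 0 to day 2 in controls and 4 in the knockout, all lower. Of all genes tested, 35.2% were called in controls and 35.9% in the knockout, and 15.5% and 15.1% were called lower. The share of the 10 called lower is thus near that of all genes in controls and above it in the knockout, as a description. The median log2 difference of the 10 was -0.20 in controls and -0.27 in the knockout, where all genes had medians of 0.01 and 0.06; without line 19 at day 2 the 10 had -0.18 and -0.21. Without line 19 at day 2, 7 passed in controls, of which Nup188 and Nup205 were higher and the other 5 lower, against 46.1% of all genes. In the knockout 5 then passed, all lower, against 38.8% of all genes called in either direction.

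Retinoic acid was added between day 2 and day 3, and in this step Nup62 and Aaas fell in both genotypes. Nup62 went from the day 2 values above to 160.2, 165 and 186 CPM in controls and to 195, 161 and 163 CPM in the knockout. Every day 3 sample was below every day 2 sample. The fall was 0.72 ± 0.12 on the log2 scale in controls (adjusted p = 7.1e-04) and 0.53 ± 0.12 in the knockout (adjusted p = 0.0044). With line 19 at day 2 left out it was 0.73 ± 0.10 and 0.52 ± 0.11, called in both. Il4i1 (3.45 to 10.9 CPM before TMM scaling) and Atf5 (17.8 to 70.3) overlap Nup62 in part, Il4i1 on the same strand, and reads in shared exons may be counted for each.

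Aaas (chr15:102338252-102350759, minus strand, 16 exons) had the deepest fall of the 10 in the knockout step from day 2 to day 3. In controls it went from 127, 124 and 135 CPM to 84.2, 79.6 and 77.8 CPM. In the knockout it went from 138, 194 and 146 CPM to 69.9, 64.3 and 94.5 CPM. The days do not overlap in either genotype. The fall was 0.68 ± 0.16 on the log2 scale in controls (adjusted p = 0.0075) and 1.06 ± 0.16 in the knockout (adjusted p = 2.2e-04), and 0.68 ± 0.12 and 0.90 ± 0.13 without line 19 at day 2. The control call was lost without HM1 replicate 1 (adjusted p = 0.085), HM1 replicate 2 (0.092) or line 1A4 (0.083). The difference between the genotypes in this step was -0.39 ± 0.23 (adjusted p = 0.59), and -0.22 ± 0.18 without line 19 at day 2 (adjusted p = 0.87), and did not pass.

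The inner ring was lower at day 3 than at day 2 in controls for each of its 5 genes, but with all samples only Nup93 passed. Nup93 was at 219, 200.5 and 219 CPM in the day 3 controls and fell by 0.41 ± 0.14 on the log2 scale (adjusted p = 0.045); in the knockout it was at 237, 199 and 169 CPM, and its difference from day 2 was -0.18 ± 0.14 (adjusted p = 0.32), and -0.25 ± 0.13 without line 19 at day 2 (adjusted p = 0.16). The control call was lost without HM1 replicate 1 (adjusted p = 0.20), HM1 replicate 2 (0.33) or line 1A4 (0.14), without the filter on low counts (0.13) and in the HM1-derived lines by themselves (0.12). Nup188 was at 317, 307 and 330.2 CPM and Nup205 at 334, 313 and 351 CPM in controls, with log2 differences of -0.29 ± 0.18 and -0.24 ± 0.21 that missed the test in both fits. Nup155 at 150.4, 135 and 138 CPM and Nup35 at 14.2, 13.8 and 12.9 CPM were lowest at day 3 of the 3 days in every control series. Their differences of -0.42 ± 0.23 and -0.30 ± 0.18 missed the test and passed without line 19 at day 2, at -0.43 ± 0.11 (adjusted p = 0.0075) and -0.30 ± 0.11 (adjusted p = 0.049). In the knockout, Nup188 and Nup155 missed the test in this step and passed without that library, at -0.42 ± 0.13 (adjusted p = 0.0198) and -0.41 ± 0.12 (adjusted p = 0.018), against -0.19 ± 0.18 and -0.08 ± 0.23 with it.

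Of the remaining genes, Nup54 and Nup214 were at 65.6, 61.0 and 64.2 CPM and at 101, 101 and 98.9 CPM in the day 3 controls. Their differences from day 2, -0.29 ± 0.13 and -0.33 ± 0.14 on the log2 scale, had adjusted p-values of 0.12 and 0.12. They were 0.035 and 0.017 without line 19 at day 2. In the knockout Nup54 missed the test in both fits and Nup214 passed without that library (-0.32 ± 0.11, adjusted p = 0.038). Nup88 had a difference of -0.04 ± 0.12 in controls and one of -0.18 ± 0.12 in the knockout (adjusted p = 0.24), or -0.22 ± 0.10 without that library (adjusted p = 0.12).

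Thus 3 of the 10 passed from day 2 to day 3 in controls (Nup93, Nup62 and Aaas) and 2 in the knockout (Nup62 and Aaas), all lower, where 21.4% and 33.6% of all genes were called, 8.92% and 16% lower. The median log2 difference of the 10 was -0.31 in controls and -0.18 in the knockout, against 0.00 for all genes in both. The knockout median moved to -0.30 without line 19 at day 2, beside -0.32 in controls. Without line 19 at day 2, 7 passed in controls and 5 in the knockout, again all lower, beside 32.4% and 32% of all genes called in either direction.

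**Figure D3:**
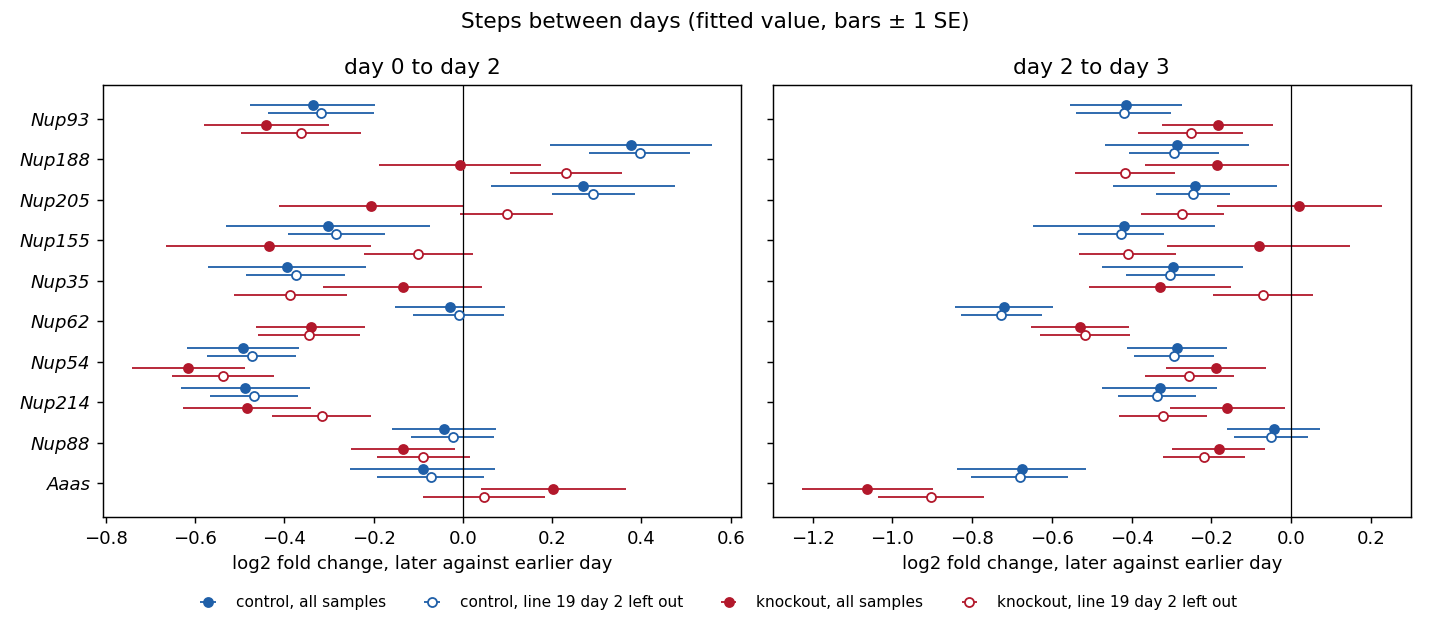
Fitted log2 fold change of each gene from day 0 to day 2 and from day 2 to day 3, in controls and in the knockout; bars are 1 SE, filled points use all 18 samples and open points leave out line 19 at day 2. Nup188 and Nup205 lie above 0 in controls in the first step, and Nup62 and Aaas are farthest below 0 in the second.

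None of the 10 genes passed the test of the difference between the genotypes' steps, with or without line 19 at day 2. From day 0 to day 2 these differences ran from -0.47 (Nup205) to 0.29 (Aaas), and the smallest adjusted p was 0.75. From day 2 to day 3 they ran from -0.39 (Aaas) to 0.34 (Nup155), with a smallest adjusted p of 0.59. No member had an unadjusted p below 0.05 in either with all samples, beside 1308 and 1626 of all 18279 genes. Leaving out line 19 at day 2, they ran from -0.34 (Nup62) to 0.18 (Nup155) and from -0.22 (Aaas) to 0.23 (Nup35), with smallest adjusted p-values of 0.59 and 0.84. Of all genes, 0.0219% and 0.0383% were called in these tests, or 0.0211% and 0.0317% in the fit that leaves out line 19 at day 2, so few genes of any kind passed them.

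Between the genotypes, Nup88 was the one member that passed edgeR's test, at day 3. Nup88 (chr11:70943058-70969959, minus strand, 13 exons in the representing transcript) was at 228, 220.1 and 199 CPM in the day 3 controls and at 164, 162 and 133 CPM in lines 14, 19 and 319. The groups do not overlap, and line 319 is lowest. The log2 fold change was -0.50 ± 0.12 (adjusted p = 0.025), and -0.50 ± 0.09 without line 19 at day 2 (adjusted p = 0.0040). At day 2 Nup88 was at 225, 234 and 207 CPM in controls and at 189.8, 177.1 and 154 CPM in the knockout, again without overlap, with a log2 difference of -0.36 ± 0.12 that missed the threshold (adjusted p = 0.11), as it did without line 19 at day 2 (-0.34 ± 0.10, adjusted p = 0.11). At day 0 the values were 241, 226 and 218 CPM against 212, 219 and 145 CPM, which overlap through line 19, and the difference was -0.27 ± 0.12 (adjusted p = 0.41). Against the control of its own background each knockout line was lower on all 3 days, from -0.10 (line 19, day 0) to -0.58 (line 319, day 0 and day 3). Rabep1, at 50.6 to 145 CPM before TMM scaling, overlaps 48 bases of Nup88 exon on the opposite strand.

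With 1 of the 10 called at day 3 and none at day 0 and day 2, the counts stand beside 5.18% of all genes at day 3 (2.44% lower), 0.853% at day 0 and 1.6% at day 2. In the fit that leaves out line 19 at day 2, the members' counts were the same, beside 15.9%, 2.01% and 1.98% of all genes. At day 0 and day 2, 1 and 2 of the 10 had an unadjusted p below 0.05 in edgeR's test, beside 1945 and 3738 of all 18279 genes. DESeq2 called none at day 0 and Nup88 at day 2 (adjusted p = 0.022), beside 3.05% and 7.69% of all genes. The call on Nup88 at day 3 was lost when HM1 replicate 1 was left out (adjusted p = 0.18), HM1 replicate 2 (0.17), line 1A4 (0.13) or line 14 (0.075). It was also lost without the filter on low counts (adjusted p = 0.11), without the background term (0.085) and in the HM1-derived lines by themselves (0.071).

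**Figure D4:**
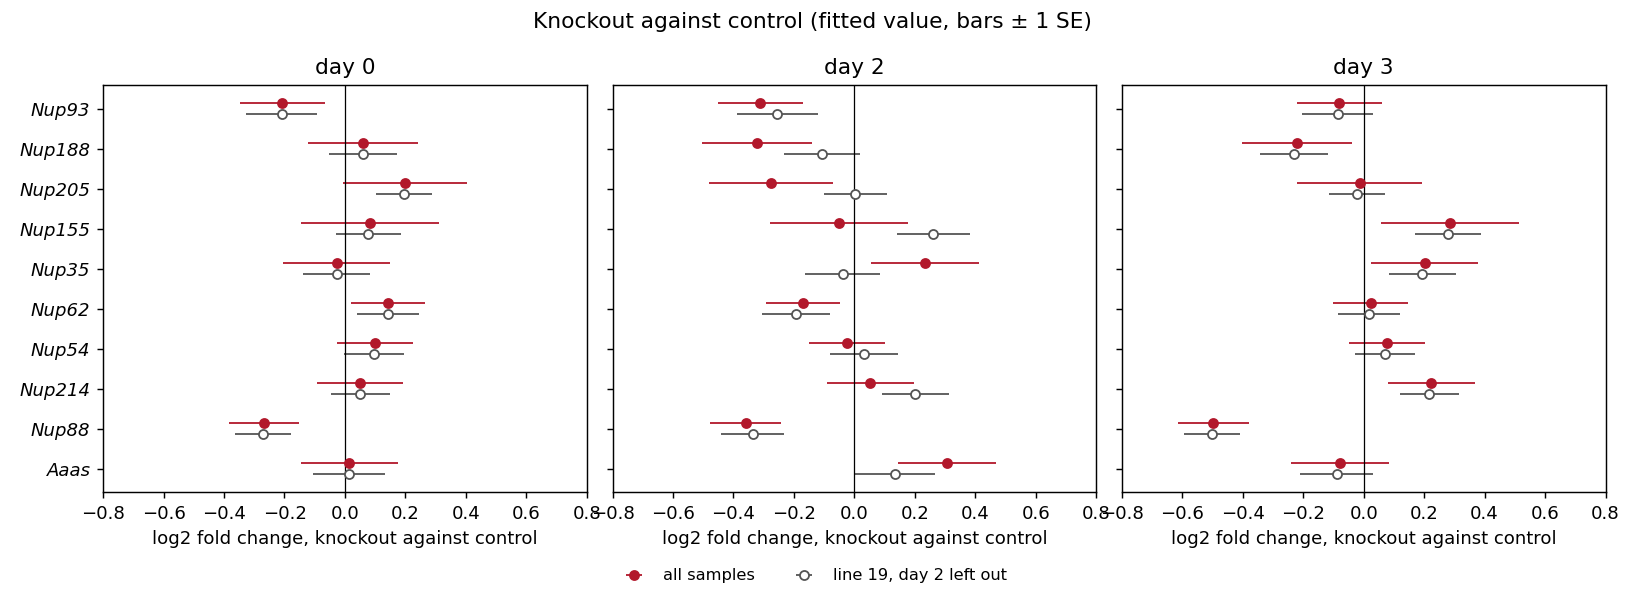
Fitted log2 fold change of each gene in the knockout against the control at day 0, day 2 and day 3; bars are 1 SE, filled points use all 18 samples and open points leave out line 19 at day 2. Nup88 lies below 0 on each day, at -0.50 on day 3, and the values of Nup155, Nup205 and Nup35 at day 2 move with the library left out.

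Nup88 lies on chromosome 11 and Nup93 on chromosome 8, and the levels of both chromosomes as a whole differed between the lines. Over 1485 genes of chromosome 11, the median log2 difference from HM1 of the same day was -0.33 to -0.25 in line 14, -0.36 to -0.22 in line 19 and -0.34 to -0.26 in line 319 over the 3 days, and -0.18 to -0.14 in the control line 1A4. Over 920 genes of chromosome 8 it was -0.08 to -0.06 in line 14, -0.40 to -0.23 in line 19, -0.48 to -0.34 in line 319 and 0.05 to 0.08 in line 1A4. The low chromosome 8 of line 319 goes against the extra chromosome 8 in its label, while chromosome 12, at 0.39 to 0.52, goes with it. Chromosome X of this line, labelled XX, was at 0.47 to 0.67. Medians of the other autosomes, line 19 at day 2 left out, lay between -0.09 and 0.17.

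Set against its chromosome, Nup88 was closer to 0. Its fitted difference at day 3 minus the median of chromosome 11 (-0.29) was -0.21, and 30.5% of the genes on that chromosome had a lower value. When each chromosome was centred in each sample before the fit, the difference at day 3 was -0.19 ± 0.13 and no longer passed (adjusted p = 0.47). Nup93 had a fitted difference of -0.21 ± 0.14 at day 0, -0.31 ± 0.14 at day 2 (-0.25 ± 0.13 without line 19 at day 2) and -0.08 ± 0.14 at day 3, none of which passed, and after centring these were 0.02, -0.04 and 0.22. By line, Nup93 was at -0.48, -0.42 and -0.37 against 1A4 in line 319 and at 0.04, -0.14 and 0.18 against HM1 in line 14, on days 0, 2 and 3. Nup88 was at -0.58, -0.43 and -0.58 against 1A4 in line 319 on these days. Against HM1 it was at -0.14, -0.27 and -0.45 in line 14 and at -0.10, -0.37 and -0.46 in line 19. The medians of line 319 against 1A4 were -0.11, -0.17 and -0.19 on chromosome 11 and -0.37, -0.55 and -0.50 on chromosome 8. A difference set by Nup133 and one set by the chromosomes of these lines cannot be told apart for Nup88 and Nup93.

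**Figure D5:**
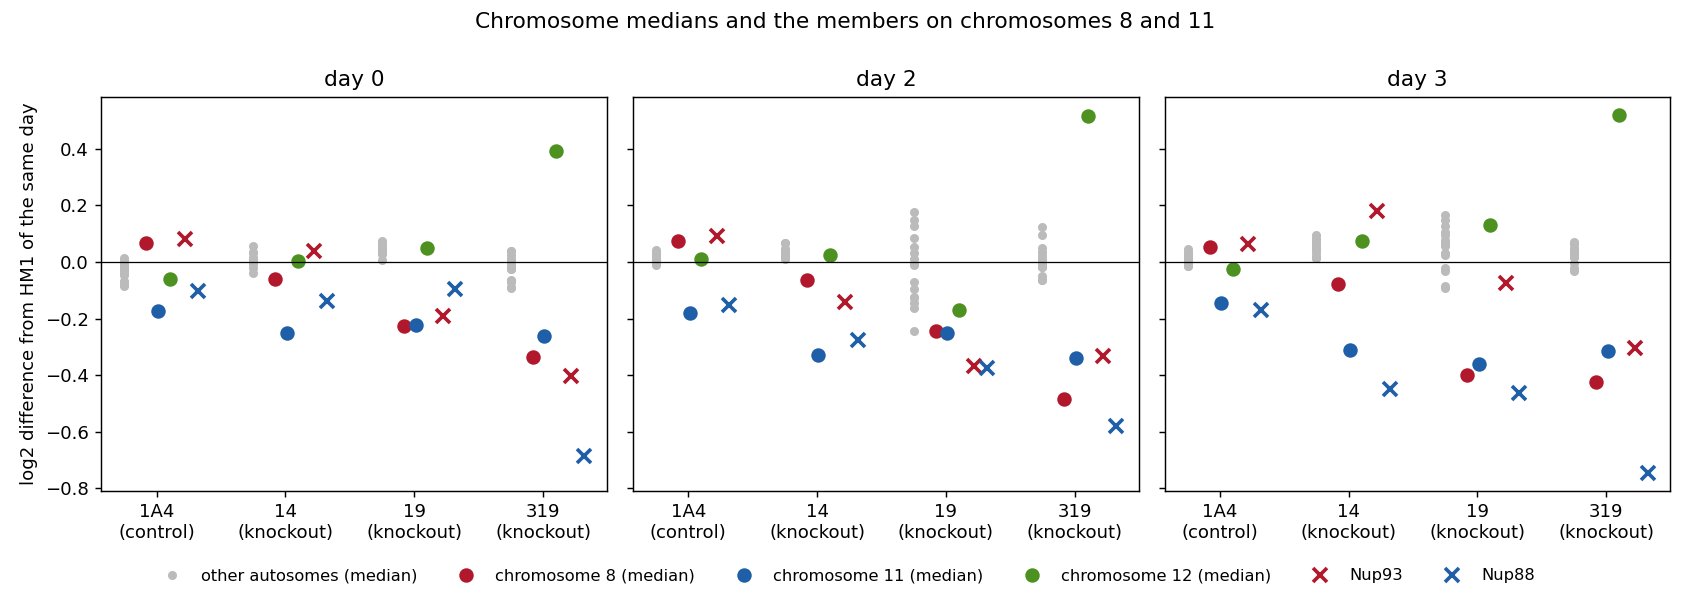
Median log2 difference from HM1 of the same day over the genes of each autosome, for 4 lines and 3 days, with the values of Nup93 (chromosome 8) and Nup88 (chromosome 11) as crosses. Chromosome 11 is below 0 in all 4 lines, chromosome 8 is lowest in lines 19 and 319, and chromosome 12 is high in line 319.

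The other 8 genes missed the test between genotypes on each day, and their values differed among the lines. At day 3 the knockout samples lay above all controls for Nup155 (169, 193 and 155 CPM against 150.4, 135 and 138), Nup35 (14.4, 17.3 and 15.3 CPM against 14.2, 13.8 and 12.9) and Nup214 (129, 111 and 110.3 CPM against 101, 101 and 98.9). Their log2 differences were 0.29 ± 0.23, 0.20 ± 0.18 and 0.22 ± 0.14, with adjusted p-values of 0.51, 0.56 and 0.39, and of 0.092, 0.25 and 0.14 without line 19 at day 2. Counting Nup88, 4 of the 10 genes had groups that do not overlap at day 3, where 35.2% of all genes had none. At day 2 there were also 4 (Nup93, Nup62 and Nup88 below the controls, Aaas above) against 21.7% of all genes, and at day 0 there were 2 (Nup205 and Nup62 above) against 17.8%. The share at day 3 is close to the background, and nothing about the members is read from these counts.

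For Nup188 and Nup205 the knockout lines lay far apart at day 2. There the 3 knockout samples of Nup188 were at 383, 211 and 337 CPM and those of Nup205 at 392, 189 and 395 CPM, against 369 to 414 and 368 to 431 CPM in controls. With all samples the log2 differences were -0.32 ± 0.18 and -0.27 ± 0.21 (adjusted p = 0.33 and 0.47), and without line 19 at day 2 they were -0.11 ± 0.13 and 0.00 ± 0.10. At day 3 Nup188 was at 331 CPM in line 14, just above the highest control at 330.2 CPM. Lines 19 and 319, at 255 and 232 CPM, lay below all controls. The log2 difference of Nup188 at day 3 was -0.22 ± 0.18 (adjusted p = 0.52). For Nup62 and Nup54 the day 3 differences were 0.02 ± 0.12 and 0.08 ± 0.13. No member passed the test of whether the knockout effect differed between the HM1-derived and the blastocyst-derived lines, beside 648 of all 18279 genes. Nup93 had the largest value, -0.34 ± 0.15 (adjusted p = 0.25).

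Genes whose products sit together in the pore were also set side by side. The ratio of Nup188 to Nup205 per length was 1.03 ± 0.04 in the day 0 controls, 1.11 ± 0.03 at day 2 and 1.08 ± 0.02 at day 3 (SD, n = 3). In the knockout it was 0.941 ± 0.08, 1.10 ± 0.15 and 0.928 ± 0.12, with the highest value, 1.26, in line 19 at day 2. The ratio of Nup62 to Nup54 was 2.27 ± 0.02, 3.14 ± 0.29 and 2.32 ± 0.20 in controls, highest at day 2. In the knockout it was 2.38 ± 0.44, 2.85 ± 0.38 and 2.24 ± 0.29. The ratio of Nup214 to Nup88 was 0.351 ± 0.02, 0.258 ± 0.02 and 0.211 ± 0.01 in controls and 0.456 ± 0.16, 0.350 ± 0.11 and 0.348 ± 0.03 in the knockout. Without line 19, the day 2 knockout values in lines 14 and 319 were 1.10 and 0.958 for Nup188 to Nup205, 3.03 and 2.41 for Nup62 to Nup54, and 0.316 and 0.475 for Nup214 to Nup88. For this last ratio at day 3, the 3 knockout samples (0.311 to 0.375) lay above the 3 controls (0.201 to 0.226); with 3 against 3 no test was made, and Nup88 with its chromosome 11 is the denominator.

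Across the 18 samples the log2 CPM of the 45 pairs of members had Pearson correlations from -0.40 to 0.87, 42 of them above 0, with a median of 0.41. Without line 19 at day 2 they ran from -0.16 to 0.94 (Nup35 with Nup54), and single pairs moved both ways. Nup155 with Nup35 went from 0.26 to 0.84, and Nup188 with Nup155 from 0.40 to 0.06. These samples share days, lines and the scaling, so the values are a description. Nup93 and Nup54 had a correlation of 0.86, and Nup188 and Nup205 one of 0.82, or 0.76 over the 17 samples without line 19 at day 2. Nup188 with Nup35 was lowest at -0.40, and was -0.16 without that library. The genes outside the pore whose pattern was most like the mean of the 10 standardised members were Parp1 (r = 0.97), Dimt1 (0.97), Smarcd1 (0.97), Urb2 (0.97) and Eef1e1 (0.97), out of 9423 genes whose mean reached 10 CPM. Over the 17 samples without line 19 at day 2 their correlations were 0.97 to 0.98.

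The rest of the nuclear pore was read from a list of 22 further nucleoporins, of which 21 were tested and Nup58 is not analysed here. From day 0 to day 2, 4 were lower in controls and none higher: Sec13 of the Y-complex, Tpr of the nuclear basket, the membrane protein Tmem33 and the export factor Gle1 (-0.59 ± 0.11, adjusted p = 6.9e-04). In the knockout 7 were lower, those 4 with Nup98, Ahctf1 and Nup42, and Nup210l was higher. From day 2 to day 3, 4 were lower in controls (Nup107, Nup85, Nup43 and Tpr), and in the knockout 4 were lower (Nup85, Nup43, Nup37 and Rae1) and 3 higher (Nup210, Nup210l and Tmem33). Of all genes, 35.2% in controls and 35.9% in the knockout were called from day 0 to day 2 (15.5% and 15.1% lower). From day 2 to day 3 the shares were 21.4% and 33.6% (8.92% and 16% lower). Nup43, a Y-complex subunit, had -0.70 ± 0.13 in controls and -0.82 ± 0.13 in the knockout in this step, or -0.67 ± 0.09 in the knockout without line 19 at day 2. The median log2 differences of the 21 in the 4 steps were -0.35, -0.31, -0.32 and -0.09 (controls from day 0 to day 2 and from day 2 to day 3, then the knockout in the same order), and -0.33, -0.32, -0.26 and -0.23 without line 19 at day 2.

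Leaving out line 19 at day 2, these counts were 9 lower and none higher, 11 lower and 1 higher, 7 lower and 1 higher, and 8 lower and 3 higher, in the same order. They stand beside 46.1%, 32.4%, 38.8% and 32% of all genes called in either direction. Between genotypes Nup210l alone passed, at day 2 and day 3 (2.49 ± 0.31 and 3.57 ± 0.32, or 2.33 ± 0.32 and 3.57 ± 0.31 without line 19 at day 2), against 1 of the 10 members, Nup88, lower at day 3. Of all genes, 1.6% were called at day 2 and 5.18% at day 3. Without line 19 at day 2, Nup85 was also lower at both days, and at day 3 Sec13, Tpr, Nup50, Tmem33, Ranbp2 and Gle1 were also higher. In that fit 1.98% of all genes were called at day 2 and 15.9% at day 3.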

How the data were processed

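Per the labels' protocols, TruSeq stranded libraries were made from polyA+ RNA. The authors deposited raw read counts per Ensembl transcript, 72 files for 18 biological samples with 4 technical replicates each. The submitters' processing notes name bcl2fastq 2.17.1.14, STAR 2.4.0k, SAMtools, HTSeq and mm10; the annotation release, strand setting and overlap mode are not given in the sources used here. Transcripts of a gene that share exons hold nearly equal counts, so a gene is given by its transcript of highest total count. Names came from GENCODE M21 (GRCm38), which matched 108309 of 110379 identifiers; the others held 1.42% to 2.47% of counts and were left out. Reads in exons that genes share may count for each.

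Technical replicates, which differed by about sampling noise (chi-square per degree of freedom 1.01 to 1.03), were summed. Depth was 16.5 M to 54.4 M counts per sample. edgeR 4.0.16 (R 4.3.3, limma 3.58.1) was run with TMM scaling, filterByExpr and a robust quasi-likelihood fit of 6 groups of 3 samples and genetic background (11 residual degrees of freedom). Calls are at a Benjamini-Hochberg adjusted p below 0.05 over the 18279 genes tested. The fit was tested on simulated data. The labels do not say whether replicates of HM1 were separate cultures, so p-values measure the spread between these samples. Each series is 1 line or replicate followed over 3 days, which pairs the days; deviations of same-series samples correlated above 0.1 in 16 of 18 pairs of days (-0.09 to 0.40). Alternatives were other scaling, DESeq2 1.42.0, no filter, each replicate left out, no background term, HM1-derived lines alone, line 19 at day 2 left out, other transcripts, centred chromosomes and the series as a block. Named genes were the 10 members, Nup133, called genes of the nucleoporin list and the 5 genes most alike in pattern. Members and lists were chosen with earlier results of these data known. Protein sequences are not used here.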

Additional observations from a re-analysis of the deposited data

How the results depend on the processing

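The alternatives gave 1500 values for single members, of which 1430 kept their side of the threshold, 39 lost a call and 31 gained one, and no called value changed sign. In 75 of them a value not called in either fit changed sign. Nup62 (both genotypes) and Aaas (knockout) from day 2 to day 3, and Nup54 from day 0 to day 2 in the knockout, were called under all 17 alternatives.

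The count of called members between genotypes at day 3 (1, Nup88) was 0 without the filter on low counts, without the background term, with centred chromosomes and when only lines from HM1 were used, and 0 to 1 when each replicate was left out. DESeq2 called 1 at day 2, where edgeR called 0, beside 7.69% and 1.6% of all genes. From day 0 to day 2 the control count (2) was 0 without the filter, 0 to 6 over left-out replicates and 7 without line 19 at day 2; the knockout count (4) was 1 without the filter and 1 to 4 over left-out replicates. From day 2 to day 3 the control count (3) was 1 to 7 over left-out replicates and 7 without line 19 at day 2, and the knockout count (2) was 5 without that library. The share of all genes called moved in the same fits: for controls from day 0 to day 2 it was 18.4% without the filter, 15.3% to 47.4% over left-out replicates and 46.1% without line 19 at day 2, against 35.2%; for the knockout in that step, 18.3% without the filter and 20.6% to 41.3% over left-out replicates, against 35.9%. For controls from day 2 to day 3 it was 6.57% to 33.9% over left-out replicates and 32.4% without line 19 at day 2, against 21.4%. For the knockout in that step it was 32% without that library, against 33.6%. Between genotypes at day 3 it was 2.66% without the filter and 0.0919% to 10.8% over left-out replicates, against 5.18%. There it was 2.83% without the background term, 4.26% with centred chromosomes and 6.09% in the lines from HM1. With line 19 left out altogether the control counts were 6 and 7; the lowest counts came without HM1 replicate 1, HM1 replicate 2 or line 1A4 in controls, and without HM1 replicate 1 (1), HM1 replicate 2 (2) or line 14 (2) in the knockout from day 0 to day 2. Leaving out samples lowers the residual degrees of freedom; the cause of the other changes was not tested.

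With the series as a replicate block, as a fixed term or at random in limma voom, the counts of called members were 3 and 2 (control, day 0 to day 2), 3 and 3 (control, day 2 to day 3), 4 and 4 and then 2 and 2 (knockout, same steps). Of all genes, 35.6% and 37.5%, 21.8% and 23.6%, 35.4% and 35.9%, and 32.6% and 32.6% were called, in the same order. The block changed the call on Nup93 given above and no other. Nup35 had the lowest levels of the members, at 12.9 to 27.2 CPM. Calls between genotypes rest on 3 lines against 2.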
